A study of Mus musculus with 16 samples.

Results

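Nitric oxide and arginine metabolism was followed through 8 genes in mouse bone marrow-derived macrophages (BMMs). The genes are the inducible nitric oxide synthase Nos2, the citrulline recycling enzymes Ass1 and Asl, the tetrahydrobiopterin enzymes Gch1, Pts and Spr, the arginine importer Slc7a2 and the ornithine decarboxylase Odc1. They were chosen by symbol from 47069 genes in the count table, with the fold changes of the comparison below already known. Their differences between the groups are therefore given as a description, without p-values. All 8 were in the table and all 8 are among the 13211 genes that passed the filter on low counts.

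BMMs were grown from C57BL/6 mice of 8 to 10 weeks of age in medium conditioned by L929 cells and harvested on day 7. All cells of both groups were primed with IFNγ at 10 ng/mL and activated for 1 hr with LPS at 100 ng/mL plus immune complexes of IgG-opsonized OVA (LPS/ICs). The GSI group received DAPT at 25 μM, a gamma-secretase inhibitor that blocks the release of the intracellular domain of Notch receptors and also the cleavage of other substrates, and the DMSO group received the vehicle at 0.01%. By the study's methods the inhibitor was already present overnight before LPS/ICs were added, whereas legends of its other experiments give a shorter pretreatment, so the time with the inhibitor was longer than the time of activation and is not settled for these libraries. Each group held 2 libraries, each the sum of 4 sequencing runs, with totals from 42694655 to 56932059 counts. The labels do not say whether the replicates were separate cultures or animals, so p-values for other genes measure the spread between these libraries, which may be technical. There was no library of unprimed or unactivated cells, so induction by IFNγ or LPS/ICs could not be measured here.

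Nos2 is the enzyme by which activated macrophages make nitric oxide (NO), an antimicrobial gas. It oxidizes arginine to NO and citrulline and needs the cofactor tetrahydrobiopterin, which Gch1, Pts and Spr build from GTP. Ass1 and Asl turn citrulline back into arginine, and Slc7a2 (CAT2) carries arginine into the cell. Odc1 converts ornithine, which the cell makes from arginine, into putrescine, the first polyamine. In mouse macrophages, high Nos2 after IFNγ and LPS is used as a mark of inflammatory activation.

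Nos2, the member with the largest difference, was also measured by the study with qPCR primers of its own, and the pair is shown to place that assay on the gene whose reads were counted. It is given in lower case with no base marked.
Nos2 forward primer: cccttccgaagtttctggcagcagc
Nos2 reverse primer: ggctgtcagagcctcgtggctttgg
Both primers matched the transcripts of Nos2 and of no other gene in GENCODE M21 (GRCm38). The forward primer lies on the plus strand at chr11:78955413-78955437, within the coding part of exon 24, and the reverse primer is complementary to chr11:78959733-78959757 in exon 27, the last exon, where it spans the end of the coding sequence. The pair would give a product of 497 bp from 1 of the 3 annotated transcripts, the one with 27 exons. The RNA-seq counts cover all exons of the gene (chr11:78920787-78960254, plus strand), so they do not depend on this stretch. By qPCR the study reported Nos2 to be higher with GSI. In LPS/IC-activated macrophages without Rbpj, the gene of the DNA-binding partner of Notch, the study reported no difference in Nos2.

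The other members lie on other parts of the genome, each on its own chromosome. On GRCm38, Ass1 spans chr2:31470207-31520672 (plus strand) and Asl chr5:130011258-130029247 (minus strand). Gch1 lies at chr14:47153895-47189413, Pts at chr9:50521617-50528724 and Spr at chr6:85130176-85137766, all on the minus strand. Slc7a2 lies at chr8:40862396-40922308 (plus strand). Odc1 lies at chr12:17544794-17551505 (plus strand). No member shares exon bases with another gene on its own strand.

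The promoters of 5 members (Ass1, Gch1, Pts, Spr and Odc1) were found in the RefSeq promoter table on GRCm38.p6, which holds 32851 promoters from 250 bases before to 50 bases after the start. Nos2, Asl and Slc7a2 had no entry. The 2 shown belong to the tetrahydrobiopterin pathway and are the ones with a motif match in the printed stretch, which stops where an annotated exon begins. Capitals mark the matches.
Gch1 promoter, minus strand, chr14:47189414-47189663: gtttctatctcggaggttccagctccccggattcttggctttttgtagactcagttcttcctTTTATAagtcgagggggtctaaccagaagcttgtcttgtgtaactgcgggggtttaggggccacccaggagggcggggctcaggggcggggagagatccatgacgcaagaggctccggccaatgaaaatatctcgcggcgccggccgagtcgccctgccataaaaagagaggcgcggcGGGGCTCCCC
Spr promoter, minus strand, chr6:85137767-85138014: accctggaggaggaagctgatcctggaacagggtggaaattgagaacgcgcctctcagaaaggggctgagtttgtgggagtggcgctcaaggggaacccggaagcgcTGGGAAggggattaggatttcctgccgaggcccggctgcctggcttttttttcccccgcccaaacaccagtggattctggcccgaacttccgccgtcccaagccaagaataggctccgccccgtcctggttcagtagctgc
In Gch1 the capitals at the end mark a match to the kappaB motif at -10 to -1 from the start, read on both strands, and those nearer the front mark TATAAA on the opposite strand. In Spr they mark TGGGAA at -143 to -138, the core bound by RBPJ, the DNA-binding partner of Notch. Over all promoters in the table, searched on both strands, kappaB matched 8.46%, TGGGAA 25.6% and TATAAA 13.6%. Ass1 held CACGTG, the E-box bound by MYC, at -36 to -31, a motif found in 7.15% of promoters, and Pts and Odc1 held none of the 9 motifs searched. The other motifs were the interferon-gamma activated site GAS (TTCNNNGAA, 8.3%), the interferon response element ISRE (3.44%), C/EBP (TTGCNNAA, 10.8%), AP-1 (TGANTCA, 7.81%) and CRE (TGACGTCA, 1.79%), and these letters were in none of the 5 windows. A match describes the letters and does not show binding.

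Nos2 gave by far the largest difference among the 8 genes. DMSO replicates 1 and 2 held 1024 and 1470 Nos2 counts, and GSI replicates 1 and 2 held 12098 and 11876. As CPM, the counts of a gene relative to the library total adjusted by its TMM factor, the DMSO replicates were at 23.8 and 25.9 and the GSI replicates at 250 and 240. The groups were far apart, and the 2 libraries within each group lay close together. The means were 24.8 ± 1.49 CPM (SD, n = 2) with DMSO and 245 ± 6.91 CPM with GSI, a fitted log2 fold change of 3.30 ± 0.0790 (SE), or 9.86-fold. Of the 13211 tested genes, 5 had a higher log2 fold change, which put Nos2 at rank 6. The 8 DMSO runs lay between 23.2 and 26.8 CPM and the 8 GSI runs between 233 and 261 CPM. Runs of 1 library are not independent samples, so this shows agreement between runs only. Leaving out any 1 library gave log2 fold changes from 3.24 to 3.36.

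**Figure D1:**
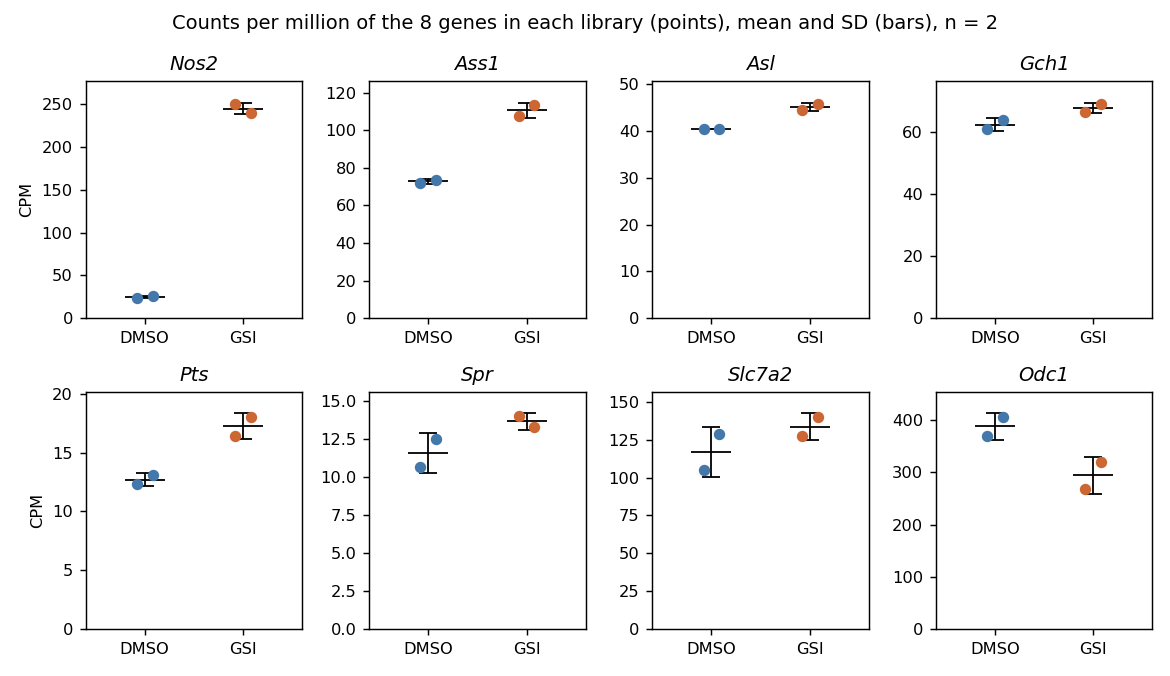
CPM (y axis, from 0, a separate scale for each gene) of the 8 genes in the DMSO and GSI libraries, with points for libraries and bars for the mean and SD (n = 2). Nos2 stands at 24.8 CPM in the DMSO group and 245 CPM in the GSI group, and Slc7a2 is the gene whose groups overlap.

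Of the 2 citrulline recycling enzymes, Ass1 passed the threshold of the test and Asl did not. Ass1, the argininosuccinate synthase that joins citrulline to aspartate, was at 71.9 and 73.5 CPM in DMSO replicates 1 and 2, compared with 108 and 114 CPM in the GSI replicates. Its groups did not overlap, the log2 fold change was 0.60 ± 0.0705, and leaving out a library gave 0.57 to 0.64. Asl, the lyase that releases arginine from argininosuccinate, was at 40.5 CPM in each of the DMSO libraries, and its GSI libraries reached 44.5 and 45.8 CPM. The Asl groups did not overlap either, but the difference was small, with a log2 fold change of 0.16 ± 0.0730 that missed the threshold of the test. The coefficients of variation that edgeR estimated for them, drawn toward those of other genes, were 0.0511 (Ass1, percentile 6.34) and 0.0506 (Asl, percentile 2.13). The median of all tested genes was 0.0593.

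Of the enzymes of tetrahydrobiopterin synthesis, Pts differed most. Pts, which makes the second step, measured 12.3 and 13.1 CPM in the vehicle replicates, while the GSI replicates measured 16.4 and 18 CPM, and its fitted difference was 0.44 ± 0.0921 on the log2 scale. Gch1, the GTP cyclohydrolase that makes the first and usually limiting step, was at 60.8 and 63.8 CPM in the DMSO group, close to its 66.4 and 68.8 CPM in the GSI group. Spr, the reductase of the last step, was at 10.7 and 12.5 CPM in the DMSO group, next to 14.0 and 13.3 CPM in the GSI group. The groups did not overlap in these 3 genes, nor did they in 70.6% of all tested genes. The log2 fold changes of Gch1 (0.12 ± 0.0715) and Spr (0.23 ± 0.10) missed the threshold. That of Spr was 0.36 without DMSO replicate 2, where it passed, and 0.12 without DMSO replicate 1. Spr also passed with the replicate number as a block and with the sequencing runs fitted as separate samples, at 0.23 in both. The cofactor enzymes thus had differences of 0.12 to 0.44 on the log2 scale, beside 3.30 for the synthase that uses the cofactor.

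Slc7a2, the arginine importer, was the 1 member whose groups overlapped. Its DMSO replicates were at 105 and 129 CPM and its GSI replicates at 127 and 140 CPM, so that DMSO replicate 2 lay above GSI replicate 1. The log2 fold change was 0.19 ± 0.0850 and missed the threshold. It was 0.05 without DMSO replicate 1, and it passed the threshold at 0.34 without DMSO replicate 2 and at 0.26 without GSI replicate 1. With all 4 libraries it also passed with the replicate number as a block and with no filter on low counts, at 0.20 in both, and with the sequencing runs fitted as separate samples (0.19). Slc7a2 shares 635 exon bases with a long noncoding RNA on the other strand, Gm26584, which was below the filter.

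Odc1 was lower with GSI. This rate-limiting enzyme of polyamine synthesis was at 370 and 406 CPM in DMSO replicates 1 and 2, compared with 269 and 319 CPM in the GSI replicates. The GSI libraries of Odc1 lay 0.25 apart on the log2 scale, the widest gap between GSI libraries among the members. The DMSO libraries of Slc7a2 lay 0.29 apart. The Odc1 groups did not overlap, and the log2 fold change was -0.40 ± 0.0820. Leaving out a library gave -0.53 to -0.28. Reads of Odc1 may be shared with its processed copies in the genome, which the counts do not resolve.

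**Figure D2:**
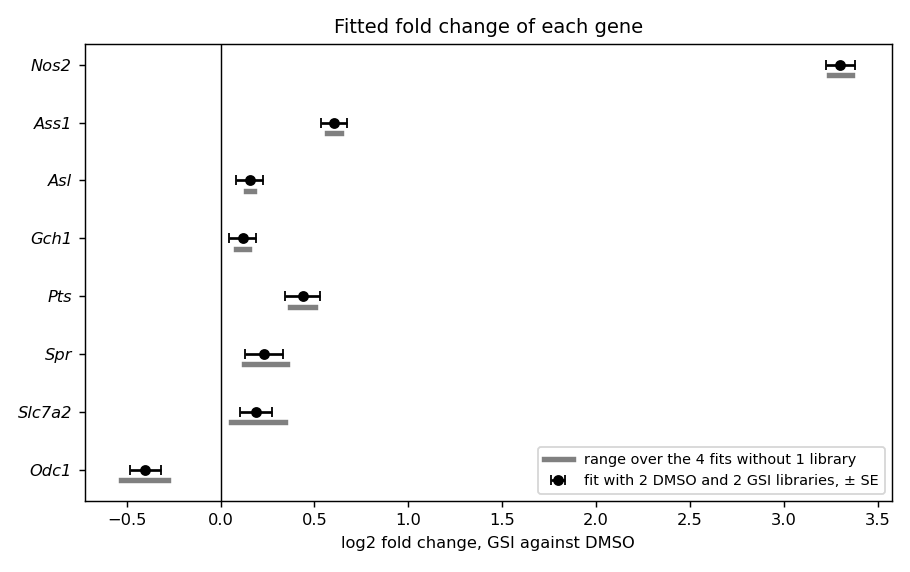
Log2 fold change of GSI against DMSO (x axis) for each of the 8 genes, as points with the SE from the fit on all 4 libraries and grey bars for the range over the 4 fits that leave out 1 library. Nos2 lies at 3.30, the other 7 genes lie between -0.40 and 0.60, and Spr has the widest error.

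Counted together, 4 of the 8 genes passed a false discovery rate (FDR) of 0.05 in edgeR's quasi-likelihood test, beside 40.8% of all tested genes. Nos2, Ass1 and Pts were higher with GSI (19% of all tested genes were) and Odc1 was lower (21.9% of all tested genes were). Nos2 alone also exceeded an absolute log2 fold change of 1.5, as did 2.91% of all tested genes. The groups did not overlap for 7 of the 8 genes, beside 70.6% of all tested genes. Since the members were chosen with these differences known, nothing is read from the counts. The median log2 fold change was 0.21 over these genes and 0.01 over all tested genes.

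Levels of different genes can be compared only per length, here as CPM per kb of the longest protein-coding transcript of each gene in GENCODE M21. In the DMSO group Odc1 was at the highest level, 176 ± 11.4 CPM per kb (SD, n = 2), followed by Ass1 at 42.9 ± 0.671, Gch1 at 22.4 ± 0.754, Asl at 16.8 ± 0.000440, Slc7a2 at 14.8 ± 2.09, Pts at 12.1 ± 0.498, Spr at 9.43 ± 1.07 and Nos2 at 5.93 ± 0.356. The difference between the neighbours Asl and Slc7a2 was within the SD of Slc7a2, whereas the other neighbours in this order lay further apart than their SDs. With GSI, Nos2 was at 58.5 ± 1.65 CPM per kb, below Odc1 at 133 ± 16 and Ass1 at 65.2 ± 2.44 and above the other 5 genes. The libraries of Slc7a2 (16.9 ± 1.12) and Pts (16.5 ± 1.07) overlapped in the GSI group. Apart from Nos2, the genes stood in the same order in both groups. The order rests on the lengths used: per kb of all annotated exons merged, Nos2 (55.6) stood above Ass1 (45.8) in the GSI group. On that scale, in the DMSO group, Spr (3.27) and Pts (2.08) were below Nos2 (5.63), and Slc7a2 (12.8) was above Gch1 (9.96) and Asl (8.39).

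**Figure D3:**
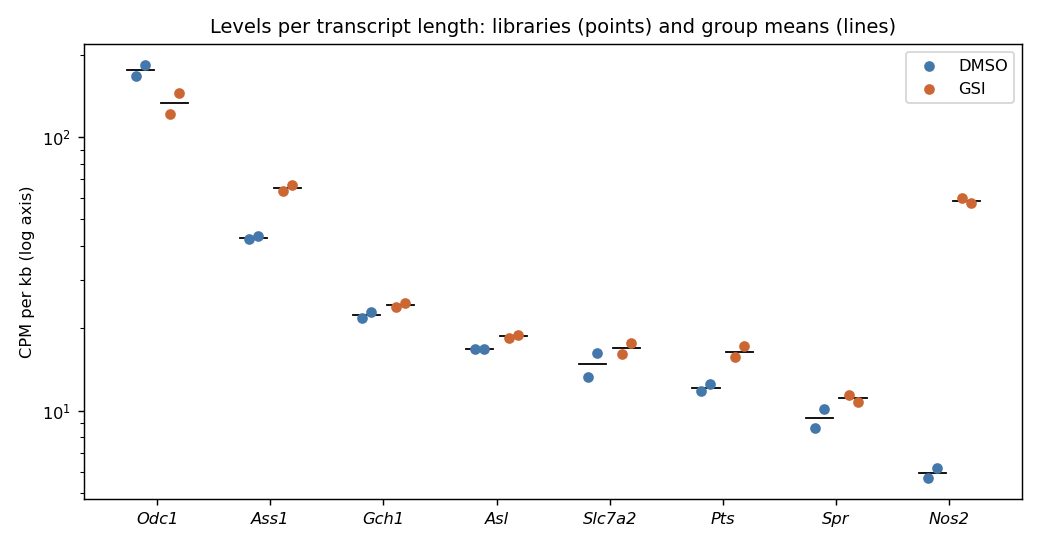
CPM per kb of transcript (y axis, log scale) of the 8 genes, ordered by their DMSO mean, with points for libraries and lines for group means (n = 2). Nos2 stands at 5.93 CPM per kb in the DMSO group and at 58.5 CPM per kb in the GSI group. The order of neighbouring genes depends on the transcript lengths used.

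The same scale sets the synthase against its partners within each library. The ratio of Nos2 to Ass1, in CPM per kb, was 0.134 and 0.142 in DMSO replicates 1 and 2, compared with 0.940 and 0.857 in the GSI replicates. Against Slc7a2 it went from 0.426 and 0.380 in the DMSO group to 3.71 and 3.24 in the GSI group. Nos2 was thus below its importer per length in both DMSO libraries and above it in both GSI libraries. These are ratios of RNA and say nothing of enzyme activity or of arginine itself. The size of each ratio depends on the transcript lengths used, while its change between the groups does not.

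The 5 genes whose centred log2 CPM over the 4 libraries lay closest to that of Nos2, among 10955 genes with a mean of at least 1 CPM, were Ly6i, Saa3, F10, Il23r and Ubd. Their Euclidean distances were 0.157, 0.217, 0.241, 0.311 and 0.488. Ly6i, a Ly6 family surface protein, was at 4.09 and 4.46 CPM in the DMSO group, compared with 38.4 and 42.6 CPM in the GSI group. Saa3, an acute-phase serum amyloid A protein, had 9.08 and 9.64 CPM against 112 and 103 CPM. F10, the coagulation factor X, had 3.18 and 3.33 CPM against 29.5 and 25.9 CPM. In all 3, as in Nos2, the DMSO libraries lay close together and the groups were far apart. Il23r, a subunit of the IL-23 receptor, rested on less than 1 CPM with DMSO, and Ubd, a ubiquitin-like protein, was at 17.1 and 16.5 CPM with DMSO against 135 and 110 CPM with GSI. With 4 libraries in 2 groups this likeness is mostly the size of the difference between groups.

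The rest of the pathway was read from 9 lists of 77 genes, none of them a member, of which 61 were tested. By edgeR's quasi-likelihood test, 11 were higher and 13 lower with GSI at an FDR under 0.05, which is 39.3% beside 40.8% of all tested genes. The lists of genes known to act on Nos2 and of genes of IL-4-activated macrophages lie outside the metabolic pathway. Each held 0 of the higher and 4 of the lower genes. Over all 61 tested genes the median log2 fold change was 0.01, and no gene passed both thresholds with all 4 libraries. Leaving out 1 library put 1 gene past both in 3 of the 4 fits: Nos1ap (-1.81) without DMSO replicate 1, Slc7a3 (1.87) without DMSO replicate 2 and Pde5a (-1.83) without GSI replicate 2. These 3 genes had 6 to 41 counts per library and were the tested genes of the lists that reached the CPM minimum of the filter in both libraries of 1 group only, the group in which each was higher. Beside the count of each list below stand 19% of all tested genes that were higher and 21.9% that were lower, and nothing particular to a list is read from its count.

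In arginine and ornithine transport, 3 of 7 tested genes were higher and 2 lower, and with DESeq2 2 were higher and 0 lower. Slc7a1 (CAT1), the widely expressed arginine importer, rose from 54.3 and 58.6 CPM to 82.1 and 84.6 CPM, a log2 fold change of 0.56 ± 0.0726 (FDR 3.24e-06). Slc3a2, the heavy chain that brings several amino acid transporters to the membrane and the most abundant gene of this list per kb, rose from 588 ± 32.3 to 792 ± 4.57 CPM, by 0.43 ± 0.0736 on the log2 scale (FDR 8.94e-05). The direction of these genes differed from that of Slc7a6, a light chain that exchanges cationic amino acids, which was at 9.53 ± 0.124 CPM with DMSO and 7.58 ± 0.392 CPM with GSI (-0.33 ± 0.105, FDR 0.0160). The call of Slc7a6 was lost with DESeq2 (-0.34), without DMSO replicate 1 (-0.32), without DMSO replicate 2 (-0.35) and without GSI replicate 1 (-0.28). The other lower gene, Slc7a7, lost its call with DESeq2 (-0.32), without DMSO replicate 2 (-0.25) and without GSI replicate 1 (-0.27), and Slc7a3, the remaining higher one, lost its call with DESeq2 (1.41) and without DMSO replicate 1 (1.09). The importers Slc7a1 and Slc7a2 can be read side by side: Slc7a1 differed by 0.56 without overlap, and Slc7a2 by 0.19 with overlap.

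Around the synthase, the number of genes that passed varied with the setting. Around the cofactor 1 gene passed, and 2 did with the sequencing runs fitted as separate samples. The 1 gene was Qdpr, the dihydropteridine reductase that regenerates tetrahydrobiopterin and the most abundant of the 3 tested recycling genes per kb. It was at 55.5 and 55.0 CPM with DMSO and 68.7 and 78.4 CPM with GSI (0.41 ± 0.0767, FDR 2.16e-04). Pcbd1, another recycling enzyme, had no counts in any library, which allows up to 0.0529 to 0.0697 CPM depending on the library. Among other NO synthases, partners and inhibitors, 1 of 9 tested genes was higher and 1 lower, with 1 higher and 0 lower by DESeq2 and 2 higher and 3 lower with the replicate block. The lower gene was Nos1ap, an adaptor of the neuronal NO synthase, with 17 and 41 counts in the DMSO replicates and 10 in each GSI replicate (-1.48 ± 0.413, FDR 0.00709), and its call was lost with DESeq2 (-1.47) and without DMSO replicate 2 (-0.94). The block added Nosip (0.21), Nostrin (-0.20) and Ddah2 (-0.62), and Ddah2, which breaks down inhibitors of NO synthases, passed in 7 of 11 alternatives. Leaving out a library gave 0.11 to 0.31 for Nosip, -0.31 to -0.09 for Nostrin and -1.01 to -0.33 for Ddah2. Calm3, which encodes calmodulin, a subunit bound by NO synthases, was at 154 ± 1.73 CPM with DMSO and 182 ± 23.5 CPM with GSI (0.24 ± 0.0800, FDR 0.0198), a call that was lost without DMSO replicate 1 (0.23), without DMSO replicate 2 (0.25) and without GSI replicate 1 (0.10). The other NO synthases were scarce: the neuronal Nos1 was at 0.663 ± 0.0155 and 0.490 ± 0.166 CPM, and the endothelial Nos3 was counted 1 and 2 times in the DMSO replicates but 8 and 6 times in the GSI replicates and was not tested; they were looked up as relatives of Nos2 and not by the rule for named genes. None of the 3 tested genes for NO receptors and NO removal passed. At an unadjusted p under 0.05 1 of them, Pde5a, did (-1.05), and with DESeq2 0 did. Pde5a was called lower with the replicate block (-1.03), with no filter (-1.05), with separate runs (-1.03) and without GSI replicate 2, and leaving out a library gave -1.83 to -0.56. Cyb5r3, the most abundant of them per kb, was at 108 ± 4.49 and 117 ± 5.81 CPM (FDR 0.204), and the subunits of soluble guanylate cyclase, Gucy1a1 and Gucy1b1, had no counts.

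Of the 3 tested genes in the list of the urea cycle and other arginine users, 1 was higher and 1 lower. Gatm, which takes arginine for creatine synthesis, fell from 239 and 243 CPM to 134 and 148 CPM (-0.78 ± 0.0723, FDR 3.98e-08) and was the most abundant gene of its list per kb. Azin2, an antizyme inhibitor rather than an enzyme that uses arginine, was higher, at 1.82 ± 0.411 and 2.89 ± 0.289 CPM (0.65 ± 0.183, FDR 0.00787), with the call lost without DMSO replicate 1 (0.45) and with DESeq2 (0.65). Otc, Cps1 and Nags, the mitochondrial part of the urea cycle, had at most 3 counts in any library. In the polyamine list 4 of 12 tested genes were higher and 1 lower, which is 41.7% beside 40.8% of all tested genes, and without GSI replicate 2 the higher ones were 2. The lower one was Smox, the spermine oxidase, with 56.9 and 60.0 CPM against 36.3 and 34.6 CPM (-0.72 ± 0.0744, FDR 1.63e-07), so this gene and Odc1 were both lower with GSI. Dohh and Dhps, the enzymes that make hypusine in a translation factor, Dhps from spermidine, were higher by 0.42 ± 0.0943 (FDR 0.00125) and 0.30 ± 0.0904 (FDR 0.0111), and Dhps lost its call without DMSO replicate 2 (0.29) and without GSI replicate 2 (0.20). The other higher gene, Atp13a2 (0.26), a polyamine transporter of lysosomes, lost its call without DMSO replicate 1 (0.21) and without GSI replicate 2 (0.17). Sat1, the acetyltransferase of polyamine breakdown and the most abundant of the list per kb, rose from 247 ± 5.46 to 301 ± 4.58 CPM (0.28 ± 0.0690, FDR 0.00248). In the list of ornithine, proline and glutamate 1 of 7 tested genes was higher and 0 lower, which is 14.3% beside 40.8% of all tested genes, and at an unadjusted p under 0.05 2 were higher and 0 lower. With DESeq2 1 was higher and 0 lower, and with the replicate block 2 and 0. The higher one, Aldh18a1, the first enzyme from glutamate to proline and ornithine, rose from 26.1 and 26.8 CPM to 42.9 and 45.8 CPM (0.75 ± 0.0769, FDR 1.65e-07). Oat, the ornithine aminotransferase and the most abundant of this list per kb, was at 91.3 ± 1.90 and 96.3 ± 5.33 CPM (FDR 0.418).

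**Figure D4:**
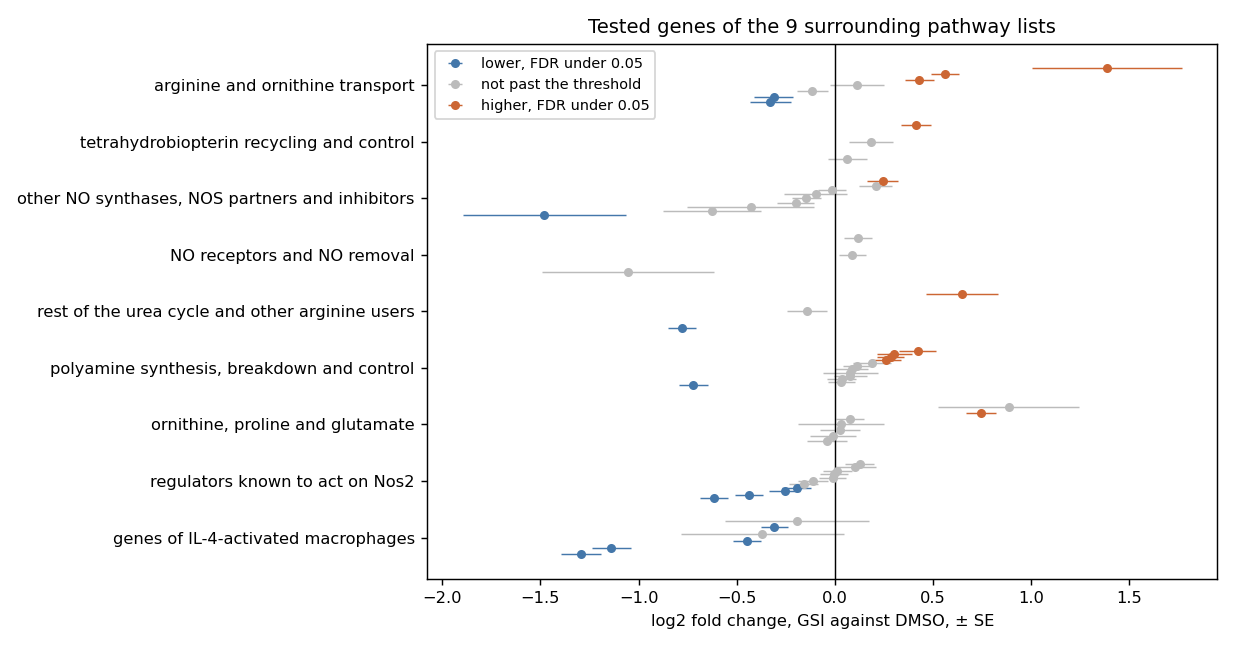
Log2 fold change of GSI against DMSO with its SE (x axis) for the 61 tested genes of the 9 pathway lists (y axis), coloured by direction where the FDR was under 0.05. Of these genes 11 are higher, 13 are lower and 37 did not pass, and 3 of the 9 lists have no gene among the higher ones.

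Of 11 tested genes that are known to act on Nos2, 0 were called higher and 4 lower, which is 36.4% beside 40.8% of all tested genes, and at an unadjusted p under 0.05 and with DESeq2 0 were higher as well. Without GSI replicate 2, however, Cebpb was called higher (0.33), with a value of -0.17 without GSI replicate 1, and with the sequencing runs as separate samples Irf1 was called higher (0.13). The replicate block added 1 more lower gene, Irf8 (-0.16), for which leaving out a library gave -0.23 to -0.09. Ifngr1, the ligand-binding chain of the IFNγ receptor, fell from 202 and 189 CPM to 124 and 131 CPM (-0.62 ± 0.0711, FDR 6.97e-07). Nfkb1, a subunit of NF-κB, fell from 301 and 320 CPM to 226 and 232 CPM (-0.44 ± 0.0701, FDR 4.20e-05). Tlr4, the LPS receptor, was at 75.8 CPM in both DMSO libraries and 58.1 and 68.8 CPM in the GSI libraries (-0.26 ± 0.0798, FDR 0.0143), a call lost without GSI replicate 1 (-0.14). The fourth lower gene, Hif1a (-0.19 ± 0.0740), lost its call without DMSO replicate 1 (-0.12) and without GSI replicate 2 (-0.15). Cebpb, Irf8 and Hif1a were named after their values were seen. Irf1, the interferon-induced transcription factor and the most abundant of the list per kb, was at 2663 ± 81.5 and 2908 ± 51.9 CPM and did not pass (0.13 ± 0.0740, FDR 0.179). These are RNA levels after 1 hr of activation and do not report the activity of the proteins.

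The macrophage markers had by far the highest sum of the marker lists, and most of them differed between the groups. All 8 macrophage markers were tested. Of these, 6 were lower and 1, Mertk, was higher with GSI, and their summed level was 12274 and 12480 CPM in the DMSO libraries and 9486 and 10411 CPM in the GSI libraries. The 9 neutrophil markers summed to 0.697 to 1.43 CPM with DMSO and 1.12 to 1.40 CPM with GSI, with Elane and Retnlg at 0, and neither of the 2 tested passed (S100a8, FDR 0.240, and S100a9, FDR 0.965), while the 7 lymphocyte markers summed to at most 0.145 CPM with Nkg7 at 0. Of 5 dendritic cell markers 3 were tested and 2 were lower, with a sum of 179 to 186 CPM with DMSO and 113 to 115 CPM with GSI that was almost all Clec9a, while Siglech was at 0. Per kb, with DMSO, Clec9a (53.8) stood above the macrophage markers Itgam (22.7) and Mertk (11.0) and below the other macrophage markers. The 6 fibroblast and endothelial markers summed to 2.0 to 2.10 CPM with DMSO and 1.18 to 1.19 CPM with GSI, with 1 of 2 tested (Pecam1) lower. The part of these markers in the differences of the 8 genes was not tested, and in bulk RNA fewer cells of a type and less RNA per cell cannot be told apart.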

How the data were processed

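BMM RNA was measured in 2 DMSO and 2 GSI libraries. The authors made strand-specific poly(A) libraries, trimmed reads with Trimmomatic, aligned them to mm10 with STAR (2.5.0a per the submitters' processing notes) and deposited raw HTSeq counts per gene, without normalization. The counting mode and strand setting are not given in the sources used here. The last number in a sample title was taken as the run, and 4 runs were summed per replicate. edgeR 4.0.16 in R 4.3.3 was used for the quasi-likelihood test with filterByExpr, TMM and Benjamini-Hochberg adjustment over 13211 genes (FDR 0.05). The SE is the log2 fold change divided by the root of F. The scripts were tested on simulated data. Alternatives were DESeq2 1.42.0, other scalings and filters, a replicate block, separate runs and each library left out. Positions came from GENCODE M21 (GRCm38). A symbol that was missing or repeated in the table was matched by gene ID.

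The members and lists were chosen with earlier results of these data known. The rule gives 10 members, of which 2 are not reported here, and counts cover the other 8. The text names these members, the 3 largest changes of each list among called genes with a mean of at least 1 CPM, its most abundant gene per kb (not for the NO synthase partners), and the 5 genes closest to Nos2. Nos1, Nos3, Slc7a3, Slc7a7, Hif1a, Cebpb, Irf8, Chil3, Mgl2, Nos1ap, Nosip, Nostrin, Ddah2, Atp13a2, Pcbd1, Pde5a, Gucy1a1, Gucy1b1, Otc, Cps1, Nags and the markers named were added after their values were seen. Retnla and Ccl17 were added in the same way. A floor of 3 counts corresponds to 0.0529 to 0.0697 CPM and covers counting error only.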

Additional observations from a re-analysis of the deposited data

How the results depend on the processing

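The count of members at an FDR under 0.05 was 4 to 6 (4 as reported) over all alternatives but 1: with the 16 runs as separate samples it was 8, and the count of pathway genes was 40 in place of 24. Runs of 1 library are not independent samples. Leaving out 1 library gave 4 to 6 members, 18 to 25 pathway genes and 4031 to 4982 of all tested genes. Nos2 was the 1 member past both thresholds under all of the alternatives run. With 1 group reduced to 1 library, that library is assumed to vary like the others. Of 88 values of single members, 78 kept direction and side of the threshold, 0 lost the call and 10 gained it. Of 669 values of pathway genes, 609 kept both, 23 lost the call and 37 gained it.

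With the replicate number as a block, 6 members, 30 pathway genes and 6444 of all genes were called. The labels do not say that the numbers pair the libraries. Over 13211 genes the deviations of DMSO replicate 1 and GSI replicate 1 from their group means correlated at r = 0.17, over genes that are not independent. The share of calls that were higher with GSI was 42.4% to 50.8% over all settings, against 46.4% as reported. Among the members Spr had the fewest counts, 459 to 711 per library.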

Other observations

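The list of genes tied to activation of macrophages with IL-4 holds genes that mark such cells as well as a receptor chain, Il4ra, and a transcription factor, Stat6, of the IL-4 pathway. Of 8 listed genes 6 were tested and 4 were lower by edgeR's quasi-likelihood test at an FDR under 0.05, beside 21.9% of all tested genes that were lower. Macrophage markers were lower in the same libraries (6 of 8, with a sum of 12274 and 12480 CPM in the DMSO group and 9486 and 10411 CPM in the GSI group), as was the dendritic cell marker Clec9a (177 ± 5.07 and 110 ± 1.39 CPM), and the part of these in the values below was not tested. None of the 6 was higher, also at an unadjusted p under 0.05 and with DESeq2, where the count was 0. Mrc1, the mannose receptor, was at 16.1 and 15.3 CPM in DMSO replicates 1 and 2 and fell to 6.16 and 6.64 CPM in the GSI replicates (log2 fold change -1.29 ± 0.101, FDR 3.54e-09). Ccl22, a chemokine for T cells, fell from 44.0 ± 4.03 to 20.0 ± 3.17 CPM (SD, n = 2) (-1.14 ± 0.0970, FDR 1.17e-08). Il4ra, a chain of the IL-4 receptor, fell by 0.45 on the log2 scale (FDR 5.10e-05), from 310 ± 1.68 to 227 ± 17.2 CPM. Stat6, the transcription factor that the IL-4 receptor activates and the most abundant of the list per kb, was at 269 ± 4.36 and 217 ± 8.62 CPM (-0.31 ± 0.0697, FDR 0.00133). The markers Chil3 (0.403 ± 0.0775 and 0.358 ± 0.00906 CPM, FDR 0.712) and Mgl2 (0.333 ± 0.0222 and 0.255 ± 0.0395 CPM, FDR 0.505) did not pass. Retnla, another gene of IL-4-activated macrophages, had no counts, and Ccl17 had 1 count in all 4 libraries together. None of these cells was given IL-4.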
